A study of Mus musculus with 10 samples.

Results

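Imprinted genes are expressed mainly from 1 parental copy, and 40 of them, from 16 chromosomal domains, are described here in cells sorted from mouse pancreas and pancreatic tumour. They were taken by symbol from a list of known imprinted genes, and all 40 were found among the 55401 genes of the count table. By the allele known to be expressed in mouse, 16 are maternally expressed and 23 paternally expressed, and Gnas is mixed because its transcripts differ in their parental origin. By RNA class 33 encode proteins and 7 are noncoding. RNA was sequenced in 10 libraries from KPC mice on the C57BL/6 background, in which engineered alleles give rise to pancreatic ductal adenocarcinoma once recombined. Mice of both groups carried the model, which is switched on by tamoxifen. The 5 tumour libraries are from animals with tamoxifen induction (20 mg/kg, injected on 5 days from an age of 6 weeks). The 5 pancreas libraries are from animals without it, and all were taken at 4 months of age. An induction age of 6 weeks is recorded for the pancreas animals too, but no tamoxifen dose or injection days. The sort used staining for the nerve growth factor receptor, and the labels call the cells Schwann cells, which ensheathe peripheral nerves. The labels name neither the driver of the Cre recombinase nor whether each library came from 1 animal. Sample codes read CTL for pancreas and COCUL for tumour, and the labels do not explain them.

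An imprint is a DNA methylation mark set in the egg or the sperm and kept on that copy of the domain in body cells. The mark silences a promoter or an insulator, so that neighbouring genes are often expressed from opposite copies, and a long noncoding RNA of the domain commonly silences the genes beside it. Many paternally expressed genes promote fetal growth and many maternally expressed genes restrain it. Many are strongly expressed in the embryo and the placenta and fall after birth. Reads here come from an inbred strain and are not assigned to a parental copy, so a level below is the sum of both copies, and whether a gene was imprinted in these cells was not measured.

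H19, the maternally expressed long noncoding RNA of the first domain described below, is also the precursor of a microRNA, whose hairpin lies in an H19 exon. Both mature strands are shown because H19 was among the members that rose most, with the seed (bases 2 to 8) in capitals, as RefSeq gives them for GRCm38.p6. The microRNA itself was not measured.
mmu-miR-675-5p: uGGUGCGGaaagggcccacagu
mmu-miR-675-3p: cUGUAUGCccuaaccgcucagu

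The hexamer TGCCGC is the core of the motif by which the zinc finger protein ZFP57 binds methylated imprints. It was searched on both strands of the RefSeq promoters for GRCm38.p6, which run from 250 bases before to 50 after a start, and it reads GCGGCA on the opposite strand. Of the 40 members 31 had such a promoter, 46 promoters in all. The hexamer was in 12 of these 46 promoters (26.1%), against 11.6% of the 32851 promoters of all genes. Snrpn and Snurf share 1 of the 12, and 2 of Mest start 3 bases apart, so some sequence is counted more than once. Promoters of members also held more CG dinucleotides, with a median of 13.5 against 7 over all promoters, and the hexamer itself holds a CG. A match is a description of the letters and not a binding site. The hexamer was in promoters of 11 members, among them 4 of the 9 called members with a promoter. Mest, Nap1l5, Igf2, Plagl1, Meg3 and Zim1, not called or not tested, hold it too. Other promoters of Snrpn and Grb10 lack it. The promoters of Nnat, Copg2 and Snrpn, which were higher in tumour, and of Grb10, which was lower, are shown because they hold the hexamer, in capitals.
Nnat, chr2:157559828-157560127, plus strand: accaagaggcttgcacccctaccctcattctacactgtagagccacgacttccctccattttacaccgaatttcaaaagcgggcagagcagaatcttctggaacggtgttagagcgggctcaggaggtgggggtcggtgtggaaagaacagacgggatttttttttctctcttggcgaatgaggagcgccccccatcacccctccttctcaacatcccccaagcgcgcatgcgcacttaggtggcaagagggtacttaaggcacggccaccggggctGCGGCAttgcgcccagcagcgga
Copg2, chr6:30896745-30897044, minus strand: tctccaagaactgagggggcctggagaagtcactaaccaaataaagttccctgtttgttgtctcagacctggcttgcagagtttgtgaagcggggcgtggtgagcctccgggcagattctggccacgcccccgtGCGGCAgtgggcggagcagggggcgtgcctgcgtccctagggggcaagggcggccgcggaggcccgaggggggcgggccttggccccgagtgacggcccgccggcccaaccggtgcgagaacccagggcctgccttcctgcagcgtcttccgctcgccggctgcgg
Snrpn, chr7:60005150-60005449, minus strand: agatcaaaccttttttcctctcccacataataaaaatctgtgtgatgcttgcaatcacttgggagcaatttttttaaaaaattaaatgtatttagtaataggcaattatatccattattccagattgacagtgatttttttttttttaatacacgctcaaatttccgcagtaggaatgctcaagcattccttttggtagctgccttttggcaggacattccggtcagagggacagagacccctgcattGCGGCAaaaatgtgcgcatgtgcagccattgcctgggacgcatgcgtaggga
Grb10, chr11:12037371-12037670, minus strand: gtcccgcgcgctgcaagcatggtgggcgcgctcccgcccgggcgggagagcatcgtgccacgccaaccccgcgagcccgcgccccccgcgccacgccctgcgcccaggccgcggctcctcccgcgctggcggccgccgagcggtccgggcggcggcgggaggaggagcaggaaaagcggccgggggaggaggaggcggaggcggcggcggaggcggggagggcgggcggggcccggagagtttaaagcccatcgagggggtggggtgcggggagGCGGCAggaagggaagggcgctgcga

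The libraries held 58242278 to 89816499 estimated counts each. Levels are in CPM, counts scaled to library depth with trimmed mean factors, given for replicates 1 to 5 in order or as mean ± SD over 5 libraries. Fold changes are tumour over pancreas, and log2 values are given ± SE. A gene is called where its Benjamini-Hochberg adjusted p over all genes tested is below 0.05 (edgeR quasi-likelihood test). Pancreas replicates 3 and 4 stood apart from the other pancreas libraries on the second principal component (6.96% of the variance). Of the 10 Schwann markers 4 could be tested and 1 was higher in tumour, and they summed to 4.10 to 10.2 CPM in pancreas and 9.66 to 12.1 in tumour. Sox10, which defines the lineage, was at 0 in tumour, Foxd3 was at 0 in both groups and Cdh19 in pancreas, and Ngfr, the gene of the sort antigen, had 4 to 22 counts in pancreas and 0 to 14 in tumour. The label is therefore not borne out by these markers, and the groups are called pancreas and tumour. Fibroblast markers were 7 lower and 1 higher (Pdgfra) of 8 tested, summing to 771 to 860 CPM in pancreas and 232 to 269 in tumour. Dcn, Lum and Dpt were at 0 in tumour. Endothelial markers (2 lower of 5; 340 to 391 and 198 to 209 CPM) and ductal epithelial markers (5 lower of 6; 91.9 to 120 and 40.6 to 44.5 CPM) were also lower in sum, and Cdh5 made up 91.8% of the endothelial one. Pericyte and smooth muscle markers were 4 higher and 4 lower of 8 (517 to 632 and 384 to 399 CPM), and neuron markers 1 lower of 2 (37.0 to 49.4 and 4.37 to 5.92 CPM, 98.3% of it Tubb3). The pericyte sum hides opposite moves. Acta2 went from a mean of 266 to 1.74 CPM and Tagln from 41.8 to 0.541, while Cspg4 rose from 171 to 248 and Notch3 from 75.4 to 135. Endocrine markers, of cells in which some imprinted genes are abundant, summed to under 1 CPM in each library, with Ins1, Pcsk1 and Iapp at 0 throughout. The part of these cell types in the differences below was not tested. In such bulk samples fewer cells of a type and less RNA per cell cannot be told apart.

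Of the 40 imprinted genes 25 passed the filter on low counts, 11 of these were higher in tumour and 4 lower, and 10 were not called. Across the 17548 genes tested 65.8% were called, 32.4% higher and 33.4% lower. Among members 60% of those tested were called, 44% higher and 16% lower. The median log2 fold change of the tested members was 0.61, against 0.0022 over all genes. Members called and changed at least 2-fold numbered 8 higher, against 12.7% of all genes tested, and 2 lower, against 10.3%. The CPM of the groups did not overlap for 11 of the 25, and for 54.6% of all genes. Of the 25, 21 were above the filter's level in all 10 libraries, while Kcnq1, Igf2, Peg3 and Phlda2 were not. As a share of all counts the 40 genes took 0.163% to 0.176% in pancreas and 0.210% to 0.213% in tumour. Gnas, Impact and Igf2r held 80.1% to 83.4% of the members' counts in pancreas and 75.7% to 76.7% in tumour.

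**Figure D1:**
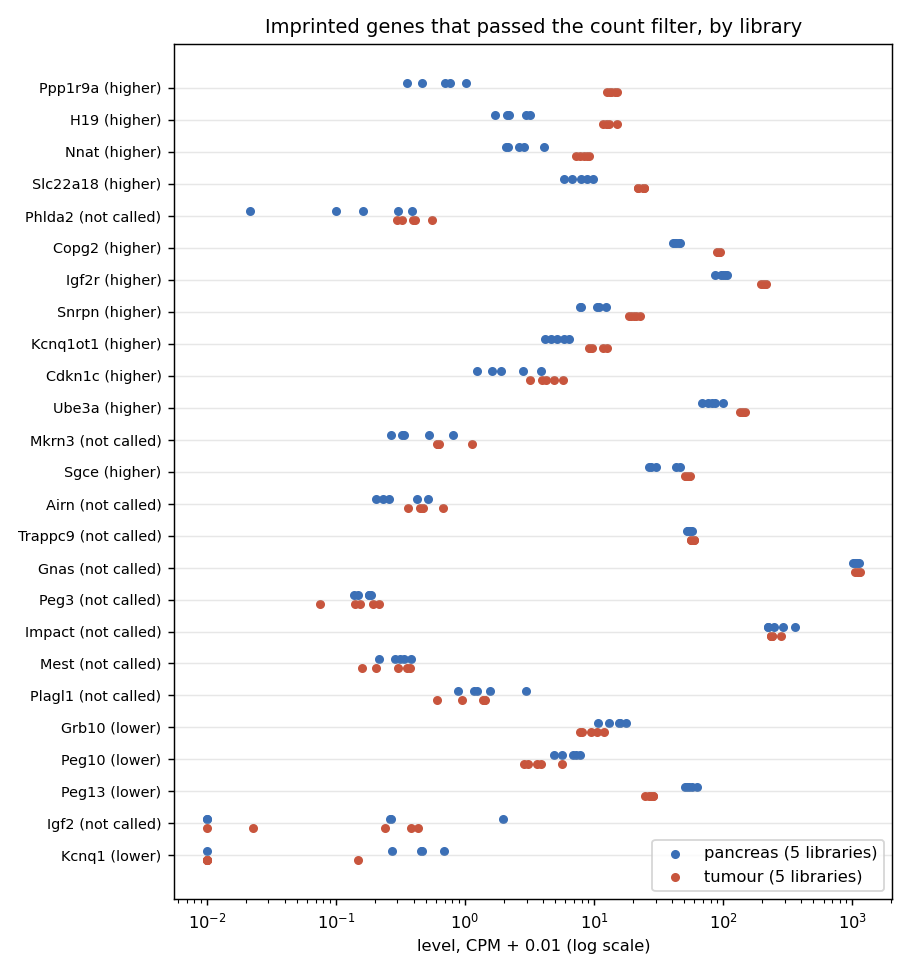
Level of each imprinted gene that passed the count filter, in CPM + 0.01 on a log axis, with 1 point per library (blue, pancreas; red, tumour; 5 each) and genes ordered by fold change, the call in brackets. Ppp1r9a, H19, Nnat and Slc22a18 at the top have no overlap between groups, while the points of Gnas, the most abundant, lie together.

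Both maternally and paternally expressed members were called in each direction. Of 11 maternally expressed genes tested 7 were higher and 2 lower, with a median log2 fold change of 1.07. Of 13 paternally expressed genes tested 4 were higher and 2 lower, with a median of -0.10. Higher and lower calls were 63.6% and 18.2% of the maternal genes and 30.8% and 15.4% of the paternal ones. Over all genes tested they were 32.4% and 33.4%. The paternal median is the value of Peg3, which had 4 to 16 counts per tumour library. Igf2, Airn, Peg3, Mest and Mkrn3, all paternal and not called, had means under 1 CPM in both groups, as had the maternal Kcnq1 and Phlda2. The part of expression level in this contrast was not tested. The higher maternal genes were H19, Igf2r, Ppp1r9a, Copg2, Cdkn1c, Slc22a18 and Ube3a, and the lower ones Grb10 and Kcnq1. Among paternal genes Sgce, Kcnq1ot1, Nnat and Snrpn were higher and Peg10 and Peg13 lower. No test of the difference between the classes was made, because members were chosen with results of these data known. Ppp1r9a, Copg2, Ube3a, Grb10 and Kcnq1 are imprinted in some tissues or transcripts only. Without the members of that kind 4 of 5 maternal genes were higher and none lower, and the paternal counts were 4 and 2 of 13, as before. Leaving out pancreas replicates 3 and 4, a choice made after seeing the data, gave 7 paternal genes higher, since Mkrn3, Airn and Nap1l5 were then called. Nap1l5 was at 0 in the pancreas libraries kept and passed the filter through tumour libraries alone, so its call is no support.

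**Figure D2:**
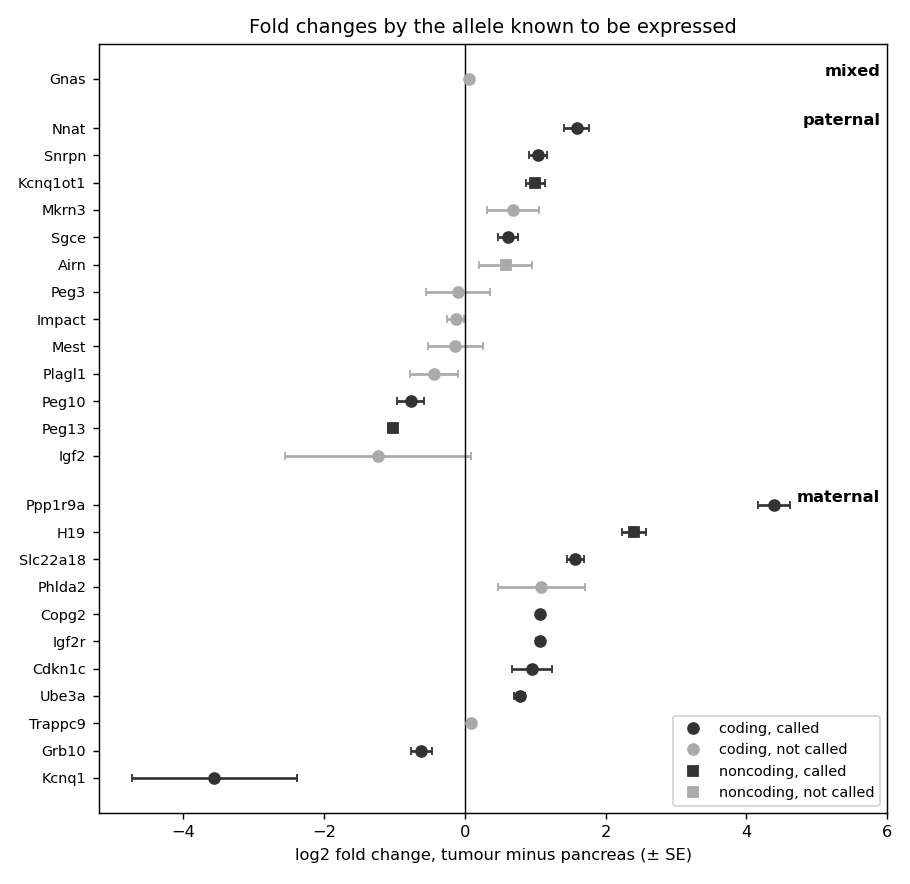
Log2 fold change, tumour minus pancreas, with its SE for the 25 tested genes, grouped by the allele known to be expressed (circles, coding; squares, noncoding; dark, called; grey, not called). Maternally expressed genes lie mostly right of 0 (median 1.07) and paternally expressed genes on both sides (median -0.10). The paternal median is the value of Peg3, a gene of few counts.

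Coding and noncoding members both moved in each direction. Of 21 coding genes tested 9 were higher and 3 lower (42.9% and 14.3%, median 0.61), and of 4 noncoding genes tested 2 were higher and 1 lower (median 0.79). Over all genes tested 32.4% were higher and 33.4% lower. The noncoding RNAs H19 and Kcnq1ot1 rose, Peg13 fell and Airn was not called. The other 3 noncoding members, Meg3, Rian and Mirg, were too low to be tested.

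In the domain of H19 and Igf2 the maternally expressed RNA was higher in tumour and the paternally expressed growth factor gene was near the floor. H19 (ENSMUSG00000000031.16, chromosome 7, 142575529 to 142578143 in mm10) restrains growth in the embryo. It stood at 2.20, 2.12, 3.19, 1.71 and 2.98 CPM in pancreas replicates 1 to 5 and at 11.6, 12.6, 15.1, 12.5 and 12.9 CPM in tumour replicates 1 to 5. The lowest tumour library lay above the highest pancreas library, and the gene was 5.29-fold higher (log2 fold change 2.40 ± 0.16, adjusted p = 2.8e-08). Igf2, the fetal insulin-like growth factor, had 0, 0, 22, 133 and 20 counts in the pancreas libraries and 37, 0, 1, 29 and 14 in the tumour libraries. Most of its pancreas counts came from replicate 4, the groups overlapped and it was not called (log2 fold change -1.23 ± 1.32, adjusted p = 0.428). Its log2 fold change was 0.66 (adjusted p = 0.656) without that library, so its direction rested on 1 library. In GENCODE M21 62.8% of the exon bases of Igf2 are shared with the overlapping gene Gm49394, so its counts are uncertain.

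Igf2r, on chromosome 17, was higher in tumour while its antisense partner Airn was not called. Igf2r encodes the receptor that clears IGF2 from the cell surface and sorts lysosomal enzymes (ENSMUSG00000023830.14, chromosome 17, 12682406 to 12769664). Levels were 107, 104, 96.1, 87.2 and 100.3 CPM in pancreas and 196, 209, 211, 205 and 214 CPM in tumour. All tumour libraries lay above all pancreas libraries (2.09-fold higher; log2 fold change 1.07 ± 0.055, adjusted p = 2.2e-09). Airn, the paternally expressed RNA that silences Igf2r in the embryo, runs across it from the opposite strand. It had 13 to 44 counts in pancreas and 28 to 52 in tumour, with overlapping groups (log2 fold change 0.58 ± 0.38, adjusted p = 0.192). Without pancreas replicates 3 and 4 Airn was called higher (log2 fold change 1.09, adjusted p = 0.0485). The kit does not mark strand, and exons of the pair share no bases in the annotation.

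Among the 25 members tested the largest fold change belonged to Ppp1r9a, next to Peg10 and Sgce on chromosome 6. It encodes neurabin, an actin-binding partner of protein phosphatase 1 (ENSMUSG00000032827.15, chromosome 6, 4902917 to 5165661). Its levels were 0.756, 0.345, 1.01, 0.457 and 0.694 CPM in pancreas and 14.4, 12.6, 13.6, 15.03 and 13.4 CPM in tumour. No pancreas library came near the tumour libraries, and the gene was 20.99-fold higher (log2 fold change 4.39 ± 0.23, adjusted p = 2.7e-09). Sgce, encoding the membrane protein epsilon-sarcoglycan, stood at 30.3, 27.7, 45.99, 42.9 and 26.8 CPM in pancreas and 50.8, 55.4, 54.6, 53.5 and 51.2 CPM in tumour (log2 fold change 0.61 ± 0.14, adjusted p = 0.00230). Pancreas replicates 3 and 4 were the highest of their group and still below every tumour library. Peg10, which derives from a retrotransposon and is needed for the placenta, starts beside Sgce on the opposite strand and went the other way. It measured 6.87, 5.68, 7.82, 7.28 and 4.90 CPM in pancreas and 3.87, 5.64, 3.60, 3.08 and 2.85 CPM in tumour, and fell by 0.77 on the log2 scale (adjusted p = 0.00302). The groups overlapped in tumour replicate 2. Both Sgce and Peg10 are paternally expressed, and they were called in opposite directions.

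In the domain of Kcnq1ot1 on chromosome 7 the silencing RNA was higher, as were Slc22a18 and Cdkn1c, while Kcnq1 was lower and Phlda2 not called. Other imprinted genes of that region, of which only some are named here, were called in both directions. Tspan32 was higher (1.77 ± 0.47 on the log2 scale). Cd81 (-0.35 ± 0.077), Tssc4 (-0.78 ± 0.069), Nap1l4 (-0.14 ± 0.045) and Osbpl5 (-0.56 ± 0.085) were lower. The value of Nap1l4 is close to 0.10, the shift in the median of all genes when only library size is used for scaling. Kcnq1ot1, the paternally expressed antisense RNA (ENSMUSG00000101609.2, chromosome 7, 143203458 to 143296549), had 5.79, 4.14, 6.37, 4.61 and 5.17 CPM in pancreas and 9.07, 12.5, 11.7, 9.25 and 9.71 CPM in tumour. The groups did not overlap (2.00-fold higher; log2 fold change 1.00 ± 0.14, adjusted p = 2.7e-05). Slc22a18, a maternally expressed gene of the organic cation transporter family, had 5.82, 6.78, 9.75, 8.87 and 7.86 CPM in pancreas and 21.8, 24.2, 22.1, 23.9 and 24.2 CPM in tumour. That was 2.96-fold higher, again without overlap (log2 fold change 1.57 ± 0.12, adjusted p = 1.0e-07). Cdkn1c encodes p57, an inhibitor of cyclin-dependent kinases that limits fetal growth. With 1.60, 1.89, 2.79, 3.88 and 1.22 CPM in pancreas and 4.26, 3.93, 4.86, 5.78 and 3.20 CPM in tumour it was called higher (log2 fold change 0.95 ± 0.28, adjusted p = 0.00880). The groups overlapped, because pancreas replicate 4 lay above tumour replicate 5. In the annotation 30.7% of its exon bases are shared with the antisense gene Gm44732, so reads of the pair cannot be told apart. Phlda2, a brake on placental growth, had 1 to 22 counts in pancreas and 19 to 42 in tumour and was not called (log2 fold change 1.08 ± 0.61, adjusted p = 0.136), but limma-voom called it higher (1.77, adjusted p = 0.0291).

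Kcnq1, the potassium channel gene that Kcnq1ot1 crosses, was called lower on few counts. It had 26, 33, 23, 0 and 53 counts in pancreas and 12, 0, 0, 0 and 0 in tumour (log2 fold change -3.56 ± 1.17, adjusted p = 0.0167). It passed the filter through 4 pancreas libraries and 1 tumour library, and the groups overlapped because pancreas replicate 4 held none. Its exons share 121 bases with Kcnq1ot1, or 2.96% of them. DESeq2 did not call it (adjusted p = 0.108), and with counts divided by 4 or a minimum of 1 CPM in 5 libraries it was not tested. Ascl2, a transcription factor gene of the placenta, had 3 to 33 and 0 to 17 counts and was too low to be tested.

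Around Snrpn on chromosome 7, where loss of the paternal copy causes Prader-Willi syndrome and loss of the maternal copy Angelman syndrome in humans, members differed among themselves. Snrpn encodes a spliceosome protein (ENSMUSG00000102252.5, chromosome 7, 59982495 to 60140219) and measured 7.87, 10.6, 12.4, 10.98 and 7.83 CPM in pancreas and 21.1, 19.5, 18.8, 22.5 and 20.5 CPM in tumour. Every tumour library was above every pancreas library (2.06-fold higher; log2 fold change 1.04 ± 0.13, adjusted p = 6.4e-06). Snurf lies wholly within Snrpn exons and had 0 to 3 counts per library, so reads of Snurf may be counted with Snrpn. In the annotation 27.3% of Snrpn exon bases are shared with the coding gene Gm38393 on the same strand, so the counts of Snrpn are uncertain. Ube3a, the maternally expressed ubiquitin ligase gene, had 99.5, 82.2, 85.9, 75.96 and 69.1 CPM in pancreas and 140.1, 143, 136, 148 and 139 CPM in tumour (log2 fold change 0.78 ± 0.079, adjusted p = 1.3e-06). The groups did not overlap. Antisense exons of Gm44560 cover 9.82% of the exon bases of Ube3a, those of Snhg14 8.74% and those of 9330162G02Rik 8.71%. Reads from the shared bases cannot be told apart.

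Ndn, which encodes the growth-suppressing protein necdin, was seen in pancreas only. It had 23, 21, 62, 29 and 9 counts in the pancreas libraries and 0 in each of the 5 tumour libraries. Against a floor of 12 counts over the tumour group, taken as 3 fragments of 4 counts, it was at least 12.5-fold lower. It was above the filter's level in 4 pancreas libraries and in none of the tumour ones, so it was not tested, and its fold is a description. Magel2, next to it, had 4 counts in 1 pancreas library and none elsewhere. Mkrn3, a ring finger gene of the same paternal group, had 19 to 69 counts in pancreas and 37 to 99 in tumour and was not called (log2 fold change 0.69 ± 0.37, adjusted p = 0.118). Without pancreas replicate 3 Mkrn3 was called higher (log2 fold change 1.01, adjusted p = 0.0265).

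Peg13 was the noncoding member that fell. It lies inside an intron of Trappc9 (ENSMUSG00000106847.1, chromosome 15, 72805600 to 72810324). Its levels were 50.5, 57.1, 54.8, 52.9 and 62.5 CPM in pancreas and 28.8, 26.8, 28.5, 27.6 and 24.7 CPM in tumour, 2.04-fold lower without overlap (log2 fold change -1.03 ± 0.066, adjusted p = 1.6e-08). Trappc9, a subunit of a vesicle trafficking complex that is maternally expressed in brain, stood at 57.8, 52.9, 55.1, 53.8 and 54.4 CPM in pancreas and 55.9, 56.5, 59.5, 59.4 and 58.5 CPM in tumour. It was not called (log2 fold change 0.081 ± 0.044, adjusted p = 0.116), but scaling by library size alone, which moved the median of all genes by 0.10, called it higher (0.18, adjusted p = 0.00193). The log2 ratio of Trappc9 to Peg13 counts ran from -0.20 to 0.20 in pancreas and from 0.96 to 1.25 in tumour. Reads from that intron of Trappc9 and from Peg13 cannot be told apart.

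Of 9 pairs of neighbours expressed from opposite alleles, 3 had count ratios that did not overlap between the groups. They were Trappc9 and Peg13, Copg2 and Mest, and Ppp1r9a and Sgce, in each of which the ratio of the maternal to the paternal gene was higher in tumour. Single genes without overlap made up 54.6% of all genes, and the maternal gene of each of these 3 pairs is of tissue-limited imprinting. Copg2, a coat protein gene of vesicles that is known to be imprinted in some tissues, had 41.3, 46.5, 42.7, 45.2 and 43.4 CPM in pancreas and 89.2, 92.1, 91.5, 92.8 and 94.7 CPM in tumour. It was 2.10-fold higher, with a wide gap between the groups (log2 fold change 1.07 ± 0.045, adjusted p = 4.1e-10). Mest, a paternally expressed fetal gene, had 16 to 25 counts in pancreas and 13 to 28 in tumour and was not called (log2 fold change -0.14 ± 0.40, adjusted p = 0.776). The ends of the pair overlap on opposite strands, and 23.1% of Mest exon bases are shared with Copg2, where reads of the pair cannot be told apart. The log2 ratio of Copg2 to Mest had a median of 7.23 in pancreas and 8.26 in tumour, and that of Ppp1r9a to Sgce of -5.50 and -1.93. Ratios of Ube3a to Snrpn (medians 2.96 and 2.76), Igf2r to Airn (8.67 and 8.83) and Cdkn1c to Kcnq1ot1 (-1.19 and -1.27) overlapped. So did those of H19 to Igf2, Meg3 to Dlk1 and Grb10 to Ddc, in each of which at least 1 gene was near the floor.

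**Figure D3:**
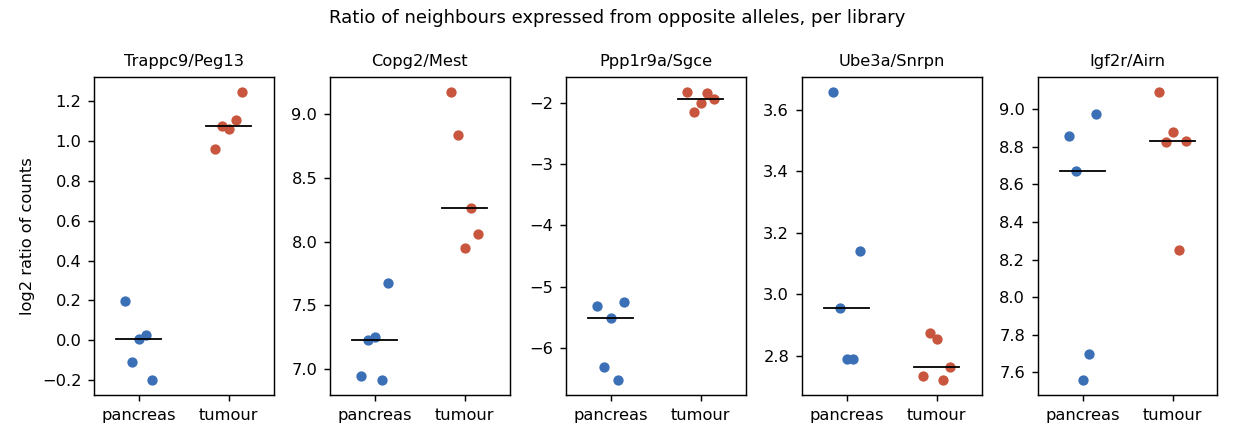
Log2 ratio of counts, maternally over paternally expressed gene, for 5 pairs of neighbours in each library (blue, pancreas; red, tumour; lines mark medians; each panel has its own axis). The first 3 panels show no overlap, with Ppp1r9a to Sgce moving from a median of -5.50 to -1.93, while the last 2 overlap.

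Nnat and Grb10 stood out among the members outside these domains. Nnat, encoding neuronatin, a small membrane protein of the endoplasmic reticulum, is paternally expressed (ENSMUSG00000067786.16, chromosome 2, 157560078 to 157562522). It had 4.07, 2.07, 2.61, 2.86 and 2.16 CPM in pancreas and 7.23, 8.38, 9.10, 7.74 and 8.88 CPM in tumour. It was 3.01-fold higher, and each tumour library exceeded each pancreas library (log2 fold change 1.59 ± 0.18, adjusted p = 2.9e-06). Grb10 encodes an adaptor that dampens insulin and IGF1 receptor signalling (ENSMUSG00000020176.17, chromosome 11, 11930508 to 12038683). Levels of 16.01, 13.1, 15.5, 17.8 and 10.7 CPM in pancreas and 7.80, 8.01, 9.39, 11.8 and 10.5 CPM in tumour overlapped in pancreas replicate 5. Grb10 fell by 0.62 on the log2 scale (adjusted p = 0.00233). Its neighbour Ddc, an enzyme of dopamine and serotonin synthesis, had 0 to 10 counts in pancreas and none in tumour.

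Gnas and Impact, the members with the highest levels per kilobase, were not called. Gnas, the stimulatory G protein subunit gene, stood at 1068 ± 44.6 and 1110.5 ± 31.6 CPM and was not called (log2 fold change 0.056 ± 0.043, adjusted p = 0.266). Scaling by library size alone called it higher (0.16, adjusted p = 0.00513). Impact, a regulator of the translation response to amino acid shortage, was at 269.7 ± 57.4 and 246 ± 20.2 CPM (log2 fold change -0.13 ± 0.12, adjusted p = 0.363). Pancreas libraries of Impact ranged from 224 to 360 CPM and tumour libraries from 235 to 282. Without pancreas replicates 3 and 4 it was called lower (-0.29, adjusted p = 0.0322). Plagl1, a zinc finger factor that regulates other imprinted genes, was low (1.56 ± 0.818 and 1.14 ± 0.364 CPM) and not called (log2 fold change -0.44 ± 0.34, adjusted p = 0.273). Per kilobase of exon Gnas led in both groups (95.5 and 99.3 CPM per kilobase in pancreas and tumour), followed by Impact (52.6 and 48.04). Igf2r came next in tumour, with 22.2, while Peg13 and Igf2r, at 11.8 and 10.6 in pancreas, did not differ beyond their spread (SD 0.969 and 0.838). H19 (0.992 and 5.26) and Kcnq1ot1 (0.0560 and 0.112), the latter annotated over 93092 exon bases, were lower in pancreas, while in tumour H19 and Peg13 (5.77) did not differ beyond their spread (SD 0.519 and 0.352).

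The remaining members were near or at 0 in both groups. None of the 6 genes of the Dlk1-Meg3 domain on chromosome 12 could be tested. Meg3, its maternally expressed long noncoding RNA, had 2, 10, 13, 11 and 10 counts in pancreas and 0, 0, 1, 1 and 4 in tumour. DESeq2, which applies its own filter, called Meg3 lower (log2 fold change -2.83, adjusted p = 0.0203). Rian and Mirg, transcribed downstream of Meg3, had at most 12 and 7 counts per library, and the paternally expressed Dlk1, Rtl1 and Dio3 at most 6, 10 and 12. Of the 3 members at Peg3, a zinc finger gene, Peg3 itself had 10 to 15 counts in pancreas and 4 to 16 in tumour (log2 fold change -0.10 ± 0.46, adjusted p = 0.856), Usp29 at most 5 and Zim1 none. Nap1l5 had 7 counts in 1 pancreas library, 0 in the others and 5 to 17 in tumour, and DESeq2 called it higher (log2 fold change 3.19, adjusted p = 0.0155) on these few counts. Rasgrf1, an exchange factor for Ras, had at most 4 in pancreas and none in tumour. These counts say that the genes were not detectable at more than a few fragments per library, not that they were silent.

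Beyond the 40 members, 25 of 37 other imprinted genes found in the table were tested, and 8 were higher and 12 lower in tumour (median log2 fold change -0.16), or 32% and 48%, against 32.4% and 33.4% of all genes tested. Peg12 had the largest change, at 0.142 ± 0.110 and 2.90 ± 0.375 CPM in pancreas and tumour (log2 fold change 4.33 ± 0.49, adjusted p = 3.8e-06). It lies beyond Mkrn3 on chromosome 7 and counters the breakdown of beta-catenin. Its pancreas libraries held only 0 to 24 counts, against 173 to 274 in tumour, so the size of its change is uncertain. Sfmbt2, a Polycomb protein gene imprinted in the placenta, was 9.13-fold higher (1.08 ± 0.206 and 9.94 ± 1.51 CPM). Commd1 rose (21.9 ± 2.31 and 42.5 ± 1.80 CPM), with a log2 fold change of 0.96 ± 0.072, whereas Zrsr1, in an intron of Commd1, was not called (0.013 ± 0.074). Begain, upstream of Dlk1, was 3.49-fold lower (5.52 ± 2.72 and 1.58 ± 0.336 CPM). Pon2, a paraoxonase gene beside Ppp1r9a, was 2.75-fold lower (87.6 ± 5.50 and 31.9 ± 1.98 CPM). H13, a signal peptide peptidase gene, was 2.15-fold lower (370.0 ± 32.1 and 172 ± 4.45 CPM).

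Genes whose products set, keep or remove DNA methylation at imprints were called in both directions, 6 higher and 5 lower of 15 tested (median 0.11). The 73.3% called lay near the 65.8% of all genes. All 3 Tet genes, whose enzymes oxidise methylated cytosine, were higher. Tet1 was at 1.90 ± 0.764 and 6.49 ± 0.690 CPM in pancreas and tumour (log2 fold change 1.77 ± 0.25, adjusted p = 3.3e-05), Tet2 at 25.2 ± 4.60 and 64.1 ± 3.98 (1.35 ± 0.11 on the log2 scale) and Tet3 at 63.3 ± 4.81 and 91.1 ± 3.67 (0.53 ± 0.056). Uhrf1, which brings the maintenance methyltransferase to copied DNA, was lower (67.7 ± 9.07 and 43.6 ± 3.10 CPM, log2 fold change -0.63 ± 0.086, adjusted p = 1.9e-05), and the methyltransferase gene Dnmt1 was not called (0.11 ± 0.063). Zfp445, a zinc finger protein of imprints, was higher (83.8 ± 5.79 and 120.2 ± 2.96 CPM). Zfp57 was not called (log2 fold change -0.51 ± 0.22, adjusted p = 0.0543), while Trim28, the corepressor that both zinc finger proteins recruit, was lower (255 ± 10.3 and 185 ± 7.42 CPM, -0.47 ± 0.043 on the log2 scale). With scaling by library size alone 3 regulators were lower, since Ctcf and Ehmt2 lost their calls, and 8 were higher, through Dnmt1 (0.22, adjusted p = 0.00678) and Kdm1b (0.19, adjusted p = 0.0384).

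**Figure D4:**
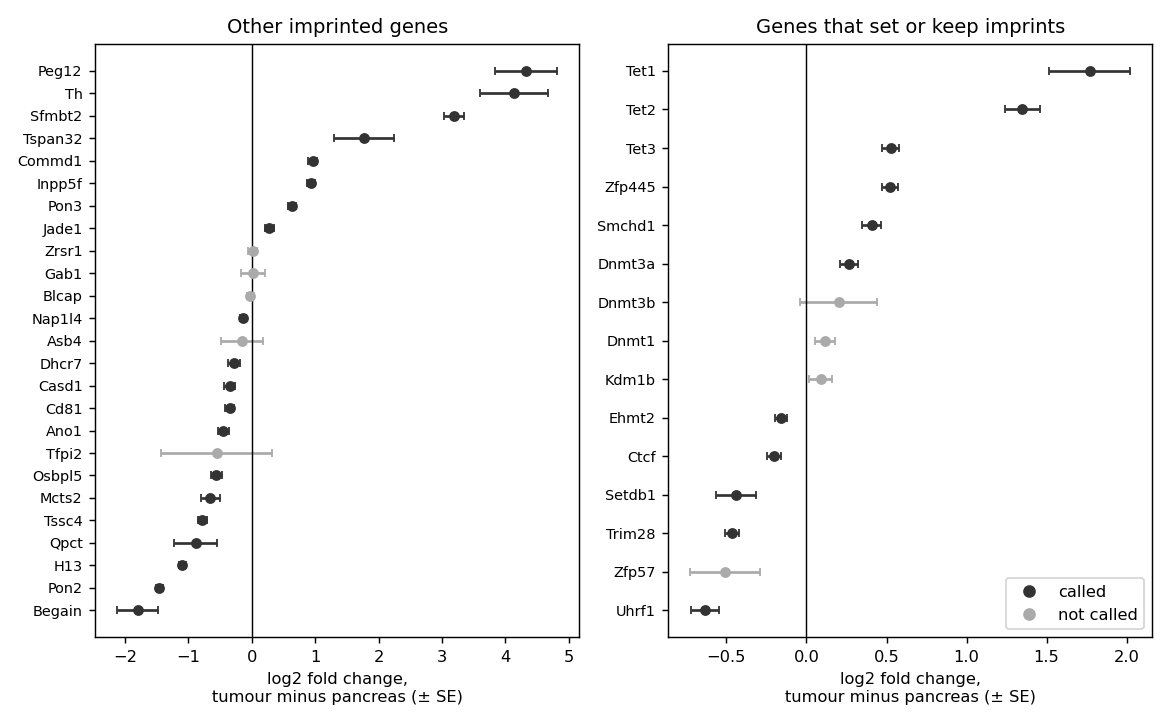
Log2 fold change, tumour minus pancreas, with its SE for other imprinted genes (left, 25 tested) and for genes that set or keep imprints (right, 15 tested); dark points were called. Peg12 has the highest value on the left (4.33) and Tet1 on the right (1.77), and each panel holds calls on both sides of 0.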

How the data were processed

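RNA was extracted with Trizol from sorted cells of 5 pancreas and 5 tumour samples, and 2 µg each went into NEBNext Ultra libraries, a kit that does not mark strand, per the labels' protocols. Groups and replicate numbers came from the sample titles. The enzymes of the digestion differed between the groups, per the labels' protocols, so digestion and group cannot be told apart. The deposited values are estimated counts for 55401 genes, which were whole numbers. HISAT, HISAT2 and HTSeq were used with mm10, per the submitters' processing notes. Their versions, strand setting and annotation: not given in the sources used here. In each library more genes held 4 counts than 3 or 5 (1.69 to 2.07 times their mean), so a fragment seems to add several counts, and no counting intervals are given.

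Coordinates and exons came from GENCODE M21 (mm10; 55141 identifiers matched), and promoter and microRNA sequences from RefSeq. Genes were filtered with filterByExpr (minimum count 10, minimum total 15), scaled with TMM factors (0.960 to 1.04) and tested with the edgeR 4.0.16 quasi-likelihood test (robust) (R 4.3.3). P-values were adjusted by Benjamini and Hochberg's method over 17548 genes, with a threshold of 0.05. The SE is the log2 fold change divided by the square root of F. Lists were described by counts and medians without a test. Ratios used 0.5 added counts. Alternatives were DESeq2 1.42.0, limma-voom 3.58.1, other scalings and filters, a replicate block, counts divided by 4 and leaving out libraries. The test was also tested on simulated data. No 2 libraries held identical values. Pairs of libraries of a group were compared on counts divided by 4, over genes averaging 100 counts or more. They differed with a chi-square of 3.01 to 44.0 per degree of freedom. The divisor is an assumed number of counts per fragment, so whether the closest libraries are separate was not settled. Nothing in the labels says that libraries came from separate animals, so a p-value reflects only how these samples vary, which may be technical. The members and lists were chosen with earlier results of these data known, and 1 listed gene is not reported here. From the 2 lists of related genes, the called genes with the largest changes and a mean of at least 1 CPM were named, up to 6 each. Dnmt1, Zfp57, Ctcf, Ehmt2, Kdm1b, Zrsr1, Tspan32, Cd81, Tssc4, Nap1l4 and Osbpl5 were named after their values were seen.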

Additional observations from a re-analysis of the deposited data

Results flagged for a closer look

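In 6 of 60 groups of 5 libraries, 1 library lay far from the other 4 by Dixon's criterion. The groups were formed by the members with at least 10 counts in some library of the group. Chance alone meets the criterion in about 1 of 20 groups of normally distributed values. Low counts with zeros need not follow that rate, so the 6 cannot be set against it. Igf2 stood at 1.96 CPM in pancreas replicate 4 against 0 to 0.257 in the other pancreas libraries. Mkrn3 was at 1.13 CPM in tumour replicate 1 against 0.596 to 0.616 in the others. Impact was at 282 CPM in tumour replicate 5 against 235 to 240. The other 3 rest on few counts. Kcnq1 was at 0.137 CPM (12 counts) in tumour replicate 1 and Rtl1 at 0.115 CPM (10 counts) in pancreas replicate 3, each against 0 in the other libraries of the group. Meg3 was at 0.0344 CPM (2 counts) in pancreas replicate 1 against 0.128 to 0.162.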

How the results depend on the processing

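Of the 15 called members, 14 kept call and direction under every alternative run, and Kcnq1 kept them under all but DESeq2, counts divided by 4 and the minimum of 1 CPM in 5 libraries. With each library left out in turn 11 to 12 members were higher and 4 to 5 lower, and all genes called numbered 11107 to 11575. The fifth lower one was Ndn, which then passed the filter through pancreas libraries alone, so its call is no support. Maternally expressed members that were lower numbered 1 with counts divided by 4 and with the minimum of 1 CPM, and 0 without members of tissue-limited imprinting, where the higher ones numbered 4 and the lower coding members 1. Paternally expressed members that were higher numbered 7 without pancreas replicates 3 and 4. Among them was Nap1l5, which then passed the filter through tumour libraries alone, so its call is no support. Without a low-count filter 4 paternal and 5 coding members were lower, through Ndn and Ddc, and with DESeq2 2 noncoding members were lower, through Meg3. Regulators that were lower numbered 3 with scaling by library size. With 1 library left out the log2 fold change of Igf2 ran from -1.68 to 0.66 (without pancreas replicate 4), that of Peg3 from -0.25 to 0.073 (without tumour replicate 5) and that of Mest from -0.27 to 0.022 (without tumour replicate 1). For Igf2 it was 1.21 without pancreas replicates 3 and 4. None of these 3 was called in any of those fits, and the cause was not tested. Same-numbered libraries of the groups did not deviate together (correlations -0.019 to 0.039), so no pairing was seen. A pairing of small effect is not excluded by these correlations. With the replicate block 11 members were higher and 4 lower.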
